A study of Mus musculus with 12 samples.

Results

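The mitochondrial ribosomal protein genes were taken by name, as the genes of the count table whose symbol starts with Mrpl or Mrps followed by a digit. They numbered 76 of 23420 genes, 47 with an Mrpl and 29 with an Mrps symbol, and lay on 17 chromosomes. RNA was sequenced from fat of untreated male C57BL/6 mice, 8 weeks old and housed at ambient temperature. Each of 4 depots gave 3 libraries. The brown depots were iBAT, from between the shoulder blades (interscapular), and scBAT, from above the collarbone (supraclavicular). The white depots were iWAT, from the groin (inguinal), and eWAT, from beside the epididymis (epididymal). The labels do not say whether the 3 libraries of a depot came from separate mice, so p-values measure the spread between libraries, which may be technical. No transgene, Cre driver or agent is named in the labels.

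The mitochondrial ribosome translates the few messages of the mitochondrial genome, which encode subunits of the respiratory chain and of ATP synthase. Its ribosomal RNA is made in the mitochondrion, while its proteins are encoded in the nucleus, made in the cytosol and imported; many have a counterpart in the bacterial ribosome and others were added during the evolution of mitochondria. Brown adipocytes are packed with mitochondria that burn fuel for heat through the uncoupling protein Ucp1, whereas white adipocytes hold few. By subunit, 49 of the 76 genes encode proteins of the large subunit, which joins amino acids, and 26 of the small subunit, which reads the message. The remaining gene, Mrps36, carries a ribosomal name, but its product is now known as a component of the 2-oxoglutarate dehydrogenase complex of the citric acid cycle.

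The promoters of the genes on which the results turn are shown first, because the regulators discussed below recognise short motifs in such regions. RefSeq held a promoter, 250 bases before to 50 bases after the start on GRCm38.p6, for 67 of the 76 genes. The motifs below were searched on both strands. They were GCGCANGCG for nuclear respiratory factor 1 (NRF1), CCGGAAGT for ETS factors such as GABP, AAGATGGCG for YY1 and TCAAGGTCA for estrogen-related receptors (ERR). Capitals mark a match, read on either strand. Mrpl30 and Mrpl12, which carry the NRF1 letters, lay at chr1:37890227-37890526 (plus strand) and chr11:120484387-120484686 (plus strand). Mrpl42, with the YY1 letters, lay at chr10:95501900-95502199 (minus strand), and Mrps27, with the ETS and YY1 letters, at chr13:99344536-99344835 (plus strand). Mrpl34, Mrps36 and Mrps6, which hold none of the motifs and mark the top and the bottom of the order, lay at chr8:71464676-71464975 (plus strand), chr13:100744610-100744909 (minus strand) and chr16:92058086-92058385 (plus strand).
Mrpl30: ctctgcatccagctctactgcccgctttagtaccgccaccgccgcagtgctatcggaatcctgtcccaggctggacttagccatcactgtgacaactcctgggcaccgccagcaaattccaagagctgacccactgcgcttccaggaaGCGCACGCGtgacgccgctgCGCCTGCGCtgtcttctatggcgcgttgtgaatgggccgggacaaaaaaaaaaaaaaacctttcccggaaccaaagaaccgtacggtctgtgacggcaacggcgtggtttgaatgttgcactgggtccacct
Mrpl12: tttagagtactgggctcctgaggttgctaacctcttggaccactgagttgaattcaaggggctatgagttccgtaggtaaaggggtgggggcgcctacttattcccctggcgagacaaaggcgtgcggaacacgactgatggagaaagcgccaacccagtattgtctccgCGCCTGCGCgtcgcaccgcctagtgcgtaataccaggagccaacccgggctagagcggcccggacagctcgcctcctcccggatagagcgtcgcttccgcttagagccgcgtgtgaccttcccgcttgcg
Mrpl42: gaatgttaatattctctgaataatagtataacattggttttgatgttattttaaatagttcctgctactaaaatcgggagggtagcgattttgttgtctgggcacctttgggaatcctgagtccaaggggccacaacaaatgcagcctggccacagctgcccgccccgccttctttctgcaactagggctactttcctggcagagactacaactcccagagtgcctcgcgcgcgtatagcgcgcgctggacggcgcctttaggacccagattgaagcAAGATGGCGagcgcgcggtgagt
Mrps27: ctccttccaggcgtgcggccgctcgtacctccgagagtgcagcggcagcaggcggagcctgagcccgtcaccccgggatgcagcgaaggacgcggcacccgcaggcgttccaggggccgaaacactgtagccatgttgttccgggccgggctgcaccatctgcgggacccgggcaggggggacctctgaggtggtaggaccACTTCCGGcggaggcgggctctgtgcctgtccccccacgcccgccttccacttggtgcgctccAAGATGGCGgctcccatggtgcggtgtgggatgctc
Mrpl34: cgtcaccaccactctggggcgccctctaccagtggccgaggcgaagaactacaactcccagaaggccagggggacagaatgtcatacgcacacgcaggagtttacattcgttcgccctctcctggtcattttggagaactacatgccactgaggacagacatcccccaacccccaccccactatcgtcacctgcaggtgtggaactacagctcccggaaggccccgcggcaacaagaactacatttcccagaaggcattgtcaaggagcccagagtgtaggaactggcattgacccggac
Mrps36: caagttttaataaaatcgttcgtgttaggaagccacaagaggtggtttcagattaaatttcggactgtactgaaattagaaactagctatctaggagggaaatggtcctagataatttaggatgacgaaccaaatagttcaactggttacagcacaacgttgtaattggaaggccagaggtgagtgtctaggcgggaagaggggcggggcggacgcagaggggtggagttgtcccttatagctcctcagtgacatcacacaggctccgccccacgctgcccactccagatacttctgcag
Mrps6: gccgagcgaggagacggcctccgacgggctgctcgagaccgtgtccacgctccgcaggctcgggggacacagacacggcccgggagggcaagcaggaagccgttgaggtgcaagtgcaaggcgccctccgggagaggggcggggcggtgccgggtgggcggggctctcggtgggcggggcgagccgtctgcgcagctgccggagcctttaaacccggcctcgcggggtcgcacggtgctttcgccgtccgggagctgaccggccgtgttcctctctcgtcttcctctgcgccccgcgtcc

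The NRF1 letters occurred in 15 of the 67 promoters (22.4%), against 13.7% of the promoters of all tested genes. Those of ETS factors occurred in 12 (17.9%), against 8.05%, and those of YY1 in 8 (11.9%), against 3.14%. The ERR letters occurred in 0 of the 67, against 0.32% of the promoters of tested genes. No promoter held overlapping matches of different motifs. The median GC content was 58.0% for the 67 promoters and 60.7% for those of tested genes. A match describes letters in this window and is not evidence of binding. With the window cut to the 150 bases before the start, the YY1 letters remained in 2 promoters (2.99%), against 0.85% of those of tested genes. Most of their matches lay after the start, as in Mrpl42 and Mrps27. In that window the NRF1 letters remained in 11 promoters (16.4%, against 9.61%) and the ETS letters in 8 (11.9%, against 5.16%).

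Total counts ranged from 17159401 to 29262554 per library, lower in the 6 brown libraries (up to 19890543) than in the 6 white ones (from 21670017). Levels are given as CPM, a gene's reads relative to the size of its library after trimmed mean of M-values (TMM) scaling. All 76 genes passed the filter on low counts, with 292 to 4439 reads per gene and library. Marker genes matched the brown or white class of the depots. The summed level of 7 brown adipocyte markers was 4070 to 5330 CPM in brown and 86.2 to 370 CPM in white libraries. These markers overlapped between iBAT and scBAT and between iWAT and eWAT, so they do not check the single depot names. Libraries 1 and 3 of iWAT stood apart. The summed level of 8 B cell markers was 1470 CPM in iWAT 1, 85.6 in iWAT 2 and 2030 in iWAT 3, against 5.07 to 42.9 CPM in the other 9 libraries. Inguinal fat surrounds a lymph node. Results on the 76 genes that rest on iWAT are therefore given with and without those libraries where they differ. Leaving both out leaves 1 iWAT library, which is then assumed to vary as the libraries of the other depots do.

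Messages for the mitochondrial ribosome were more abundant in brown than in white fat. Summed over the 76 genes, the level was 6801, 7302 and 6643 CPM in iBAT and 6466, 6254 and 7112 CPM in scBAT. The white libraries had 2395, 3167 and 2336 CPM (iWAT) and 3042, 2998 and 2685 CPM (eWAT). The lowest brown library was above the highest white library, and the brown mean was 2.44 times the white mean. As a share of all counts, with no scaling between libraries, the genes took 0.561% to 0.665% in brown and 0.279% to 0.332% in white fat, a ratio of means of 2.0. In whole tissue, fewer cells of a type and less RNA per cell cannot be told apart.

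**Figure D1:**
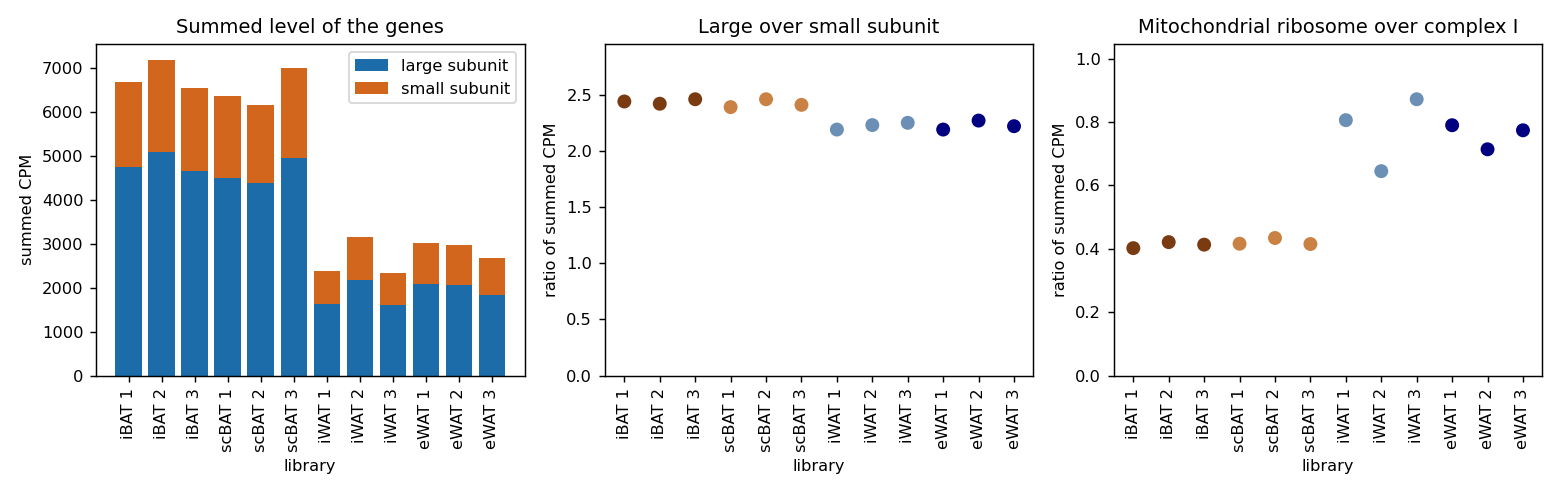
Summed level in CPM of the large and small subunit genes (stacked bars, Mrps36 not included), the ratio of large to small subunit sums, and the ratio of the sum of all 76 genes to that of the Nduf genes of respiratory complex I (points), for each of the 12 libraries. The brown libraries are higher in the first 2 panels and lower in the third, with no overlap.

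The large subunit took a slightly greater part of the sum in brown fat. The ratio of their summed levels was 2.44, 2.42 and 2.46 in iBAT and 2.39, 2.46 and 2.41 in scBAT, and the white libraries had 2.19, 2.23 and 2.25 (iWAT) and 2.19, 2.27 and 2.22 (eWAT). The lowest brown ratio exceeded the highest white ratio. As the ratio is taken within a library, scaling does not enter it, but a few abundant genes weigh heavily in it: the median log2 difference between brown and white fat was 1.18 over the genes of either subunit.

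Gene by gene, brown fat (both depots weighted equally) was compared with white fat by edgeR's quasi-likelihood test over all 14898 tested genes, with Benjamini-Hochberg adjusted p under 0.05 as the threshold. Of the 76 genes, 75 were higher in brown fat, 0 were lower and 1, Mrps6, did not pass. Among all tested genes 69.4% passed, 31.3% as higher and 38.1% as lower. The median log2 difference was 1.19 for the 76 genes (2.28-fold, quartiles 0.92 and 1.53) and -0.11 for all tested genes. For 75 genes the 6 brown libraries were all above the 6 white ones, an arrangement that held for 23.3% of all tested genes. The rise was at least 1.5-fold for 72 genes, at least 2-fold for 52 and at least 3-fold for 16. Markers of other cells differed with no overlap as well. The summed level of 10 skeletal muscle markers was 344 to 5220 CPM in brown and 42.7 to 200 CPM in white libraries. That of 6 macrophage markers was 161 to 315 CPM in brown and 1020 to 1290 in white, and that of 6 proliferation markers was 8.4 to 12.1 CPM in brown and 35.4 to 223 in white. Their part in the differences was not tested.

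**Figure D2:**
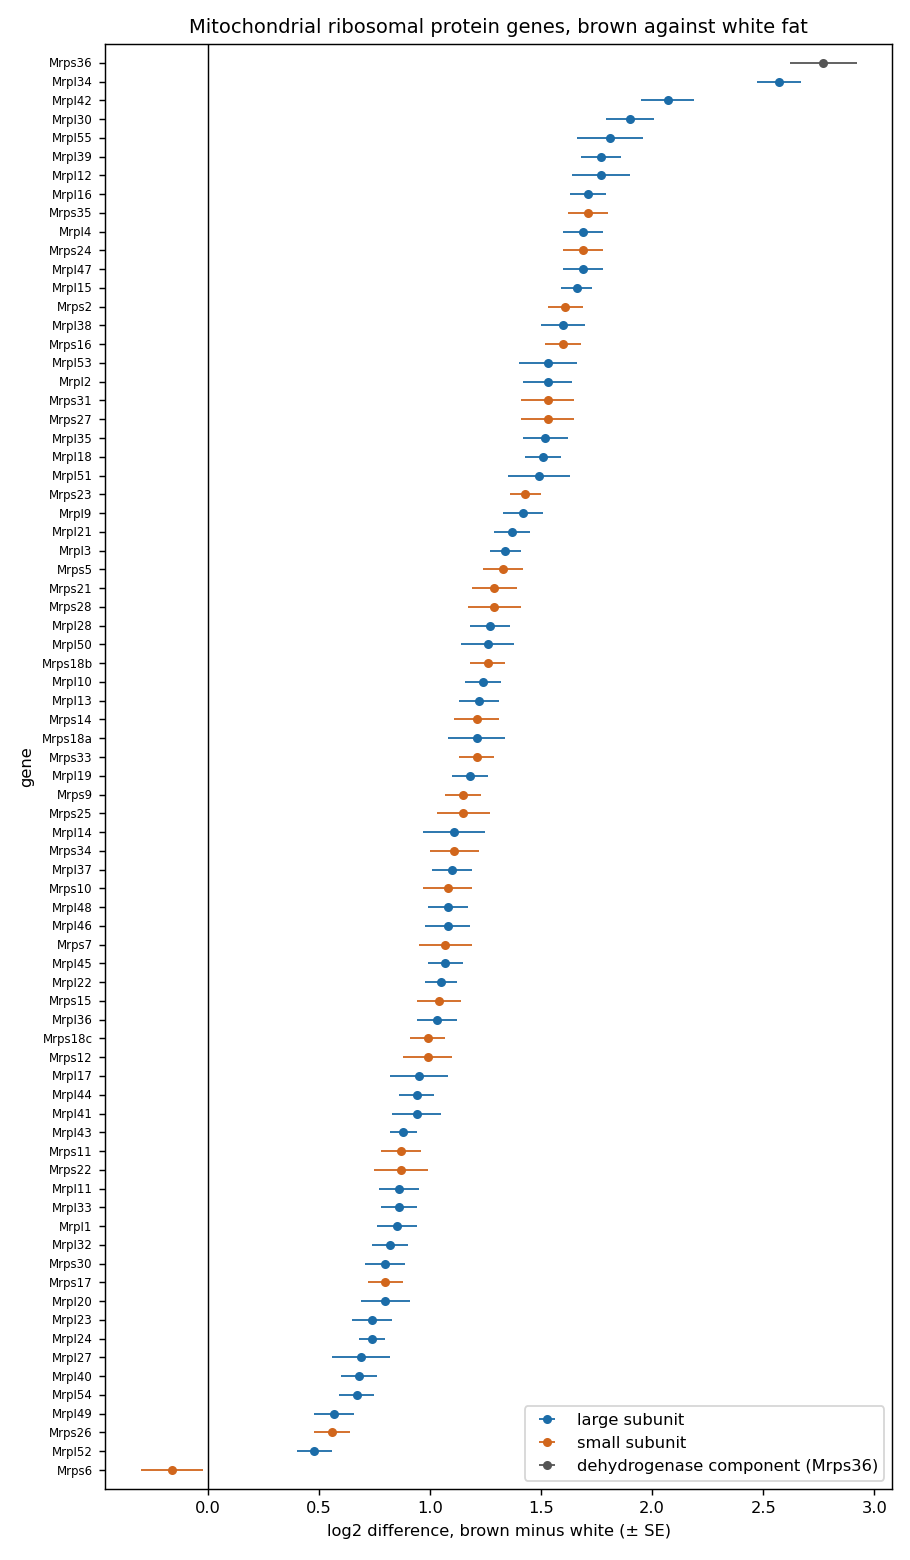
Log2 difference between brown and white fat (both depots of each, 6 libraries a side) for each of the 76 genes, in order, with its standard error (bars) and coloured by subunit. Differences run from -0.16 for Mrps6 to 2.77 for Mrps36, and large and small subunit genes are interspersed.

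Mrps36 differed most. Its level was 107, 112 and 97.7 CPM in iBAT and 92.1, 85.0 and 99.6 in scBAT, and the white libraries had 11.7, 19.4 and 10.3 (iWAT) and 14.8, 16.3 and 14.3 (eWAT). The brown libraries were far above the white ones, and the log2 difference was 2.77 ± 0.15 (SE; edgeR adjusted p = 1.24e-07). The genes of the complex to which its product belongs, chosen after their values were seen, had differences of like size: 2.73 ± 0.18 for Ogdh (edgeR adjusted p = 4.59e-07), the E1 subunit that decarboxylates 2-oxoglutarate, 2.59 ± 0.16 for Dlst (2.31e-07), the E2 subunit, and 2.26 ± 0.18 for Dld (1.72e-06), the E3 subunit. The annotation lists 3 pseudogenes named after Mrps36, so reads may have been divided between copies and its level is uncertain.

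Among the ribosomal proteins proper, Mrpl34 led. It encodes a small large-subunit protein with a bacterial counterpart. Mrpl34 had 172, 177 and 161 CPM in iBAT and 152, 137 and 168 in scBAT, and the white libraries had 22.4, 30.7 and 22.2 (iWAT) and 29.4, 31.5 and 26.5 (eWAT). The groups were far apart, with a log2 difference of 2.57 ± 0.10 (edgeR adjusted p = 2.66e-08), or 5.96-fold. Mrpl42, a large-subunit protein without a bacterial counterpart, had 200, 217 and 192 CPM in iBAT and 192, 184 and 211 in scBAT, and the white libraries had 38.1, 58.7 and 35.6 (iWAT) and 52.0, 53.5 and 46.7 (eWAT). Its log2 difference was 2.07 ± 0.12 (edgeR adjusted p = 2.22e-07).

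Mrpl30, the counterpart of bacterial L30, whose promoter holds the NRF1 letters at 2 places, had 242, 253 and 239 CPM in iBAT and 239, 235 and 258 in scBAT. It had 53.3, 83.9 and 58.0 CPM in iWAT and 67.1, 70.3 and 58.9 in eWAT, a log2 difference of 1.90 ± 0.11 (edgeR adjusted p = 2.14e-07). Mrpl12, the protein of the flexible stalk that recruits translation factors and is also known to bind the mitochondrial RNA polymerase, had 267, 283 and 265 CPM in iBAT and 250, 235 and 276 in scBAT. Its white levels were 64.0, 99.6 and 60.7 CPM in iWAT and 83.3, 84.3 and 70.9 in eWAT, a log2 difference of 1.77 ± 0.13 (edgeR adjusted p = 6.93e-07). In both genes the brown depots overlapped each other, as did the white depots. Mrpl55, a large-subunit addition of mitochondria, followed at 1.81 ± 0.15 (edgeR adjusted p = 1.69e-06), with means (± SD, n = 3) of 79.1 ± 7.09 CPM for iBAT and 65.3 ± 4.21 for scBAT, and of 18.7 ± 6.54 for iWAT and 22.7 ± 2.35 for eWAT.

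**Figure D3:**
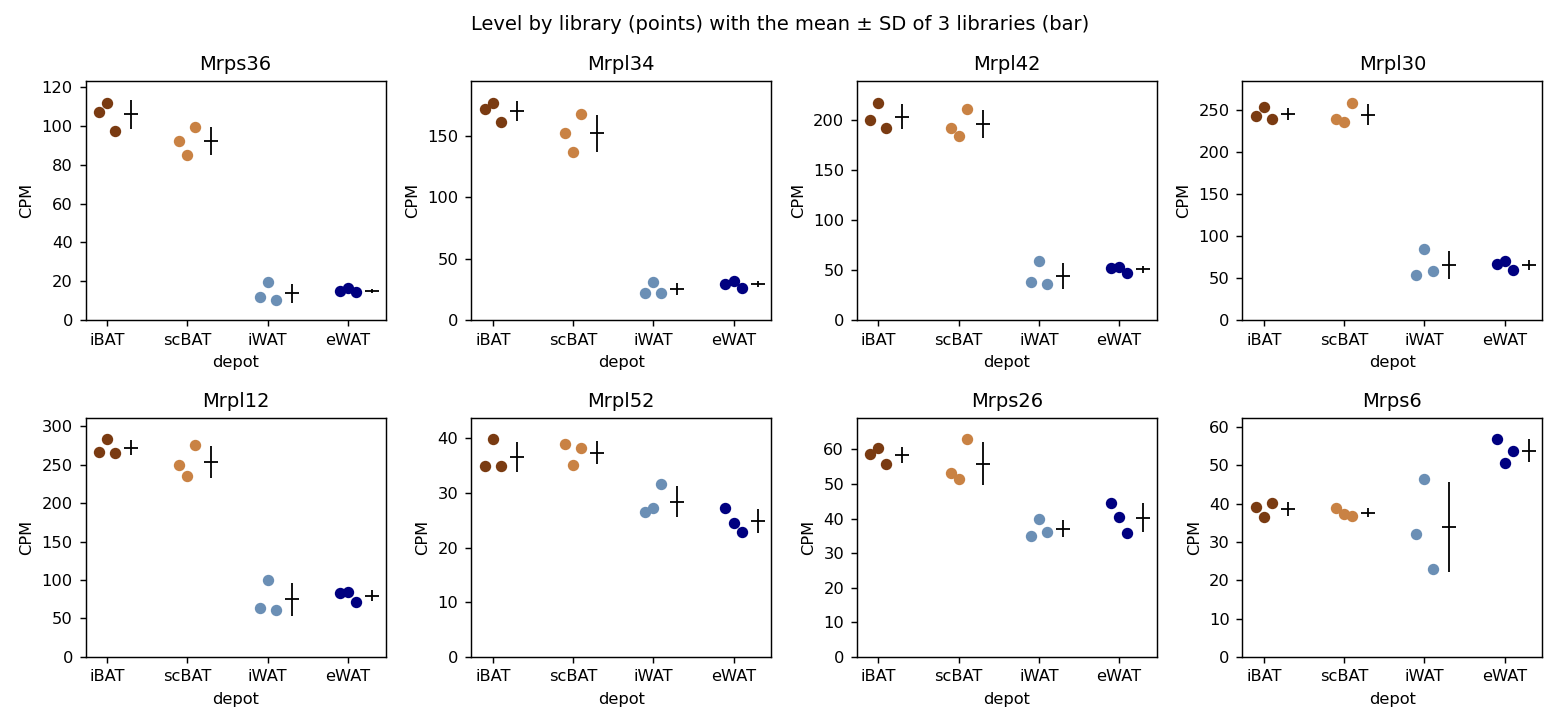
Level in CPM of 8 genes in each library (points, linear axes from 0), with the mean and SD of the 3 libraries of each depot (bars). For Mrps36, Mrpl34, Mrpl42, Mrpl30 and Mrpl12 the white libraries lie far below the brown ones, for Mrpl52 and Mrps26 the gap is small, and for Mrps6 eWAT is highest.

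At the other end, the smallest rise that passed was that of Mrpl52, a large-subunit protein without a bacterial counterpart. Mrpl52 had 35.0, 39.8 and 34.9 CPM in iBAT and 38.9, 35.1 and 38.3 in scBAT, and the white libraries had 26.5, 27.2 and 31.7 (iWAT) and 27.3, 24.5 and 22.8 (eWAT). The groups were separate but close, with a log2 difference of 0.48 ± 0.08 (edgeR adjusted p = 0.000292). Mrps26, a small-subunit addition, rose by 0.56 ± 0.08, from 37.1 ± 2.48 CPM (SD, n = 3) in iWAT and 40.3 ± 4.29 in eWAT to 58.4 ± 2.34 in iBAT and 55.9 ± 6.17 in scBAT. Mrpl49, Mrpl54 and Mrpl40, all additions to the large subunit, rose by 0.57, 0.67 and 0.68 on the log2 scale, and Mrpl27, the counterpart of a bacterial protein near the peptidyl transferase centre, by 0.69. The edgeR adjusted p of these 4 genes and Mrps26 was at most 0.000789.

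Mrps6 was the exception. It encodes the counterpart of bacterial S6 in the small subunit. Its level was 39.1, 36.6 and 40.1 CPM in iBAT and 38.9, 37.4 and 36.8 in scBAT, and the white libraries had 32.2, 46.5 and 23 (iWAT) and 56.8, 50.7 and 53.9 (eWAT). The 3 eWAT libraries were the highest, the iWAT libraries spread on both sides of the brown ones, and the difference between brown and white fat was -0.16 ± 0.14 (edgeR adjusted p = 0.317). Without iWAT 3 it was -0.27 and passed (edgeR adjusted p = 0.0231), and without iWAT 1 and 3 it was -0.38 (0.000253). The exons of Mrps6 overlap those of Slc5a3, a myo-inositol transporter gene on the same strand, together with a further transcript, over 19.9% of their length, so the assignment of reads between them is uncertain. Slc5a3, named after its values were seen, had mean levels of 60.4 CPM in iBAT, 60.6 in scBAT, 77.6 in eWAT and 57.0 in iWAT, and its difference was -0.13 ± 0.17 (edgeR adjusted p = 0.486). Whether the overlap bears on the level of Mrps6 was not tested.

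The position of a protein in the ribosome was examined next. Among the 45 genes with a bacterial counterpart 44 rose, with a median log2 difference of 1.21, and among the 28 mitochondrial additions 28 rose, with a median of 1.11. The 5 genes of the factor-binding stalk all rose, from 0.67 for Mrpl54 to 1.77 for Mrpl12, with Mrpl53 at 1.53, Mrpl10 at 1.24 and Mrpl11 at 0.86. The 6 genes of the tunnel exit, where the new chain leaves the ribosome, all rose, from 0.74 for Mrpl23 and Mrpl24 to 1.69 for Mrpl47. Mrpl45, which anchors the ribosome to the inner membrane, rose by 1.07. The 6 genes of the central protuberance, the crown of the large subunit, all rose, from 0.68 for Mrpl40 to 1.60 for Mrpl38. The paralogs of bacterial S18 all rose, by 1.21 ± 0.13 for Mrps18a, which sits in the large subunit, 1.26 ± 0.08 for Mrps18b and 0.99 ± 0.08 for Mrps18c in the small subunit. For Mrps18b, Mrpl24 and Mrpl47 at least 20% of the exon bases lie under genes on the other strand, and for Mrps18c under one on the same strand. For Mrpl53 88.0% lie under another gene on the same strand, so the assignment of its reads is uncertain. The sources used here do not give the strand setting of the counting.

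Levels between genes can be compared only per transcript length. Per kilobase of transcript, averaged over the 4 depots, Mrpl42 was highest at 185 CPM, followed by Mrpl30 at 160, Mrpl34 at 155, Mrps21 at 138, Mrpl12 at 129 and Mrpl33 at 118. Lowest were Mrpl1 at 9.17 CPM per kilobase, Mrpl47 at 8.00, Mrps25 at 7.28 and Mrpl19 at 6.45. Exons of Mrpl47, Mrps25 and Mrpl19 lie in part under genes on the other strand (24.2%, 69.8% and 36.0% of their bases). As the strand setting of the counting is not given, the levels of these genes are uncertain. The order differed between brown and white fat: Mrpl42 was highest in iBAT (304 CPM per kilobase) and scBAT (294), but Mrpl33 was highest in iWAT (82.1) and Mrps21 in eWAT (86.9). Mrpl19 was lowest in both brown depots and in eWAT, and Mrpl47 was lowest in iWAT, at 4.03 CPM per kilobase. The order also depended on the length used. By coding length Mrps22, not Mrpl19, was lowest, at 23.9 CPM per kilobase. Per kilobase of coding sequence Mrpl51 came first at 357 CPM, against rank 38 per kilobase of transcript, Mrpl34 followed at 341, and Mrpl42 was at rank 5 with 289; 5 of the 6 genes highest by transcript length were again among the 6 highest. Within the ribosome these products stand in equal number, apart from Mrpl12, which is present in several copies. The order of genes was nearly the same in both brown depots: across the 76 genes the Pearson correlation of log2 CPM was 0.996 between iBAT and scBAT, 0.956 between iWAT and eWAT and 0.747 between iBAT and eWAT. These are descriptions across genes, which are not independent and share libraries and gene lengths.

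Between the brown depots no gene of the 76 passed (edgeR), in a comparison in which 0.329% of all genes did. At an unadjusted p under 0.05, 0 of the 76 and 855 of all 14898 tested genes passed. The main fit also draws its spread from iWAT. The biological coefficient of variation of edgeR, the spread between libraries beyond read sampling, was estimated once per depot over all genes. It was 42.9% in iWAT, against 12.1% in iBAT and 15.7% in scBAT. DESeq2 and limma-voom on the same libraries also called 0, as did edgeR with only the depots compared. The log2 differences of scBAT minus iBAT ran from -0.28 for Mrpl55 to 0.12, with a median of -0.06. The brown libraries did not overlap for 3 genes, Mrpl55 and Mrpl16 lower in scBAT and Mrps17 higher, where 10.0% of all genes were separated as higher and 6.77% as lower.

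Between the white depots, 1 gene was higher and 3 were lower in iWAT than in eWAT, where 28.7% of all genes passed, 17.7% as higher and 11.0% as lower. Mrpl19, the counterpart of bacterial L19, was higher by 0.48 ± 0.11 (edgeR adjusted p = 0.0158), at 23, 20.2 and 26.6 CPM in iWAT and 17.3, 16.6 and 16.1 in eWAT. Its exons lie in part under a gene on the other strand. Mrpl20, the counterpart of bacterial L20, was lower by -0.63 ± 0.15 (0.0184), at 39.9, 51.1 and 32.3 CPM in iWAT and 65.0, 67.6 and 57.5 in eWAT. Mrps6 was lower by -0.67 ± 0.20 (0.0325) and Mrpl49 by -0.36 ± 0.12 (0.0476).

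These counts rested on single libraries. Library iWAT 2 was the highest of its depot for 71 of the 76 genes, at a median of 1.33 times the mean of the other iWAT libraries, while iWAT 3 was lowest for 45 and iWAT 1 for 28. The SD of CPM as a share of its mean, a measure unlike edgeR's above, had a median over the 76 genes of 17.3% in iWAT. It was 6.38% in iBAT, 7.61% in scBAT and 7.71% in eWAT. Without iWAT 2 there were 40 lower and 2 higher genes. Without iWAT 1, eWAT 1 or eWAT 2 there were 0 of either. Without iWAT 3 there were 1 lower and 1 higher gene, and without eWAT 3 there were 1 lower and 0 higher. The share of all tested genes that passed in each of these runs is not given here. These counts therefore cannot be read as particular to the 76 genes. With iWAT 1 and 3 left out, which sets iWAT 2 alone against eWAT, 0 passed and the median difference was 0.15 in place of -0.12; this describes 1 library and not the depot. The libraries with high B cell and T cell markers had the lower levels. T cell markers summed to 630, 43.7 and 1010 CPM in iWAT 1, 2 and 3, general adipocyte markers to 5240, 8810 and 3450 CPM, and brown adipocyte markers to 122, 370 and 142 CPM. Their part in the difference was not tested.

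The 4 pairs of a brown and a white depot each gave 75 higher genes. The median log2 difference was 1.28 for iBAT minus iWAT, 1.12 for iBAT minus eWAT, 1.22 for scBAT minus iWAT and 1.09 for scBAT minus eWAT, where 27.9%, 26.2%, 28.1% and 26.0% of all genes passed as higher. With iWAT 2 as the only iWAT library, the medians against iWAT were 1.02 and 0.95. In each pair Mrps6 was the gene that was not called higher in the main fit. Its differences were 0.19 and 0.15 against iWAT, and -0.48 (edgeR adjusted p = 0.062) and -0.51 (0.0492) against eWAT. The last passed as lower, as 25.8% of all genes did. These calls of Mrps6 were not stable. Without iWAT 2 it was called higher in both pairs against iWAT. The count of lower genes for scBAT minus eWAT changed in 14 alternative runs and was the same in 7. Comparing iBAT with iWAT and scBAT with eWAT shares no library, and the differences of the 76 genes had a Pearson correlation of 0.915 across genes, with 75 of the same sign.

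**Figure D4:**
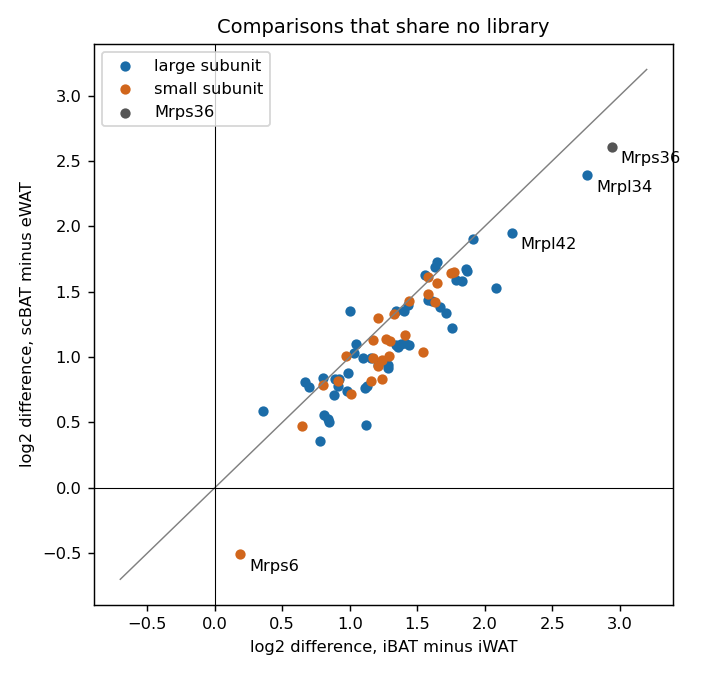
Log2 difference of iBAT minus iWAT (x axis) and of scBAT minus eWAT (y axis) for the 76 genes (points, coloured by subunit), with the line of equality. Mrps6 is positive at 0.19 on the x axis and negative at -0.51 on the y axis, and the other 75 genes are positive on both.

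The rest of the mitochondrial translation machinery rose as well. All 7 mitochondrial ribosomal proteins that carry other names rose, with a median of 1.02, among them Ptcd3 (1.46), Chchd1 (1.48) and Dap3 (0.92). Of 18 genes for translation factors and their helpers 17 rose, with a median of 1.22: Lrpprc, which stabilises mitochondrial messages, by 2.02 ± 0.08, Mtif2, the initiation factor, by 1.23 ± 0.05, Guf1, an elongation factor, by 1.57 ± 0.07, and Gfm2, which helps recycle ribosomes, by 1.25 ± 0.07. Mtfmt, which formylates the initiator tRNA, did not pass at -0.04. Of 26 assembly genes 23 rose, with a median of 0.78, and the smallest adjusted p-values were those of the ribosome-binding factor Rbfa (1.23), C1qbp (1.19) and the ribosomal RNA chaperone Eral1 (1.11). Of 20 mitochondrial tRNA synthetases 18 rose, with a median of 0.96, and the smallest adjusted p-values were those of Aars2 (1.59) and Yars2 (1.5), and Mars2 (0.40) and Ears2 (-0.09) did not pass. Of 15 RNA processing genes 14 rose, with a median of 1.08, and the smallest adjusted p-values were those of Fastk (1.69) and Fastkd1 (2.26). Of 13 genes for the upkeep and transcription of mitochondrial DNA 11 rose, with a median of 0.90, among them the helicase Peo1 (1.29), the transcription factor Tfb2m (1.67) and the RNA polymerase Polrmt (0.90). No gene fell in any of these lists. Of 15 genes encoded by mitochondrial DNA that were looked for by symbol, 0 were found in the count table, so they were not analysed here.

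**Figure D5:**
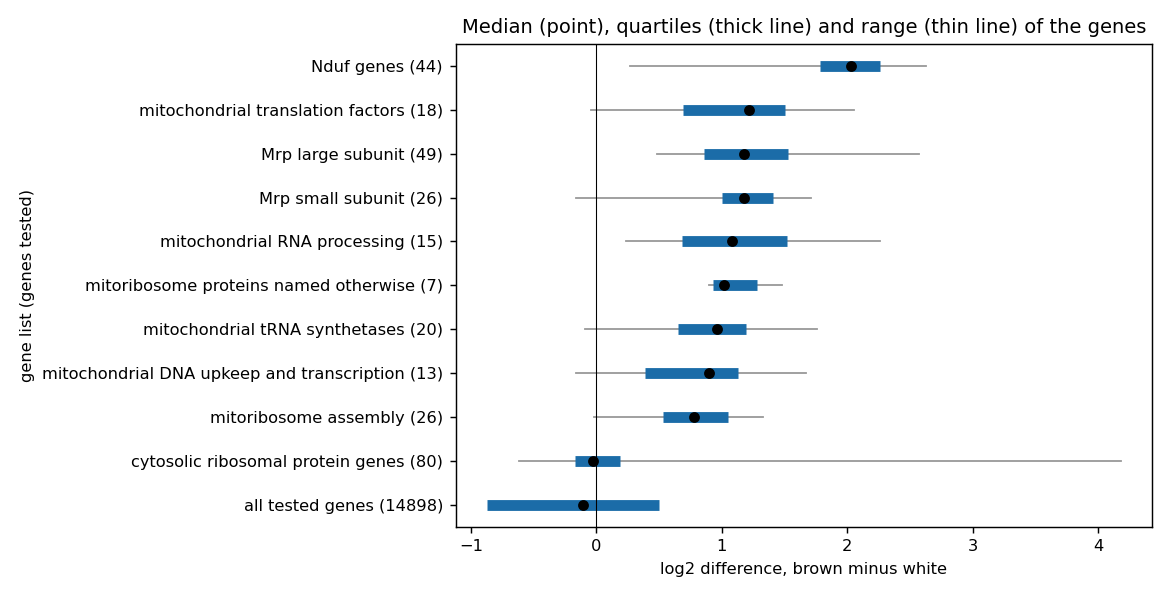
Log2 difference between brown and white fat for lists of genes (number tested in brackets): median (point), quartiles (thick line) and range (thin line, not drawn for all tested genes). The Nduf genes have the highest median at 2.03, the lists of the mitochondrial translation machinery lie between 0.78 and 1.22, and the cytosolic ribosomal proteins lie at -0.03.

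The median difference lay below that of respiratory complex I and above that of the cytosolic ribosome. Of 44 tested Nduf genes, which encode subunits and assembly factors of respiratory complex I, 43 rose, with a median of 2.03. The summed level of the 76 mitochondrial ribosomal genes was 0.402, 0.421 and 0.413 times that of the Nduf genes in iBAT and 0.416, 0.434 and 0.415 times in scBAT. In iWAT the ratio was 0.806, 0.645 and 0.872, and in eWAT it was 0.790, 0.714 and 0.774. All white ratios were above all brown ones, and iWAT 2 had the lowest white ratio. Its B cell markers summed to 85.6 CPM, the least in its depot but more than in eWAT (6.28 to 42.9 CPM). Its brown adipocyte markers, at 370 CPM, were the highest of the white libraries. What sets the ratio was not tested. Of 80 tested genes of the cytosolic ribosome 13 rose and 5 fell, with a median of -0.03. That value averaged unlike white depots: 71 of the 80 were higher in iWAT than in eWAT (median 0.64). Of all tested genes, 17.7% passed as higher in that comparison. The median of the cytosolic ribosome genes was -0.38 for iBAT minus iWAT and 0.30 for iBAT minus eWAT. The iWAT side includes the libraries with B cell markers at 1470 and 2030 CPM. Whether the cytosolic ribosome genes differ between the white depots without those libraries was not tested.

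The regulators known for mitochondrial genes did not move as one. The coactivators Ppargc1b and Ppargc1a rose by 3.72 ± 0.12 and 3.31 ± 0.20 on the log2 scale, and the estrogen-related receptors Esrrg, Esrrb and Esrra by 4.09, 2.89 and 2.16. Gabpa, the DNA-binding subunit of GABP, rose by 0.67 ± 0.06, from 76.7 CPM in iWAT and 64.4 in eWAT to 117 in iBAT and 106 in scBAT, whereas its partner Gabpb1 fell by 0.56 (edgeR adjusted p = 0.0186). Nrf1 fell by 0.42 ± 0.15 (edgeR adjusted p = 0.0256), at 21.0, 16.1 and 18.9 CPM in iBAT and 19.1, 21.8 and 20.7 in scBAT, and the white libraries had 34.1, 22.5 and 44.5 (iWAT) and 20.5, 20.3 and 19.9 (eWAT). Its high libraries were iWAT 1 and 3, those with the B cell markers, and in eWAT it lay within the brown range. Myc fell by 1.23 (0.00253), again with its highest levels in iWAT 1 and 3, at 35.4 and 48.6 CPM against 11.4 in iWAT 2. No regulator was lower in iBAT or scBAT than in eWAT by the test. With iWAT 1 and 3 left out, the differences between brown and white fat were -0.12 for Gabpb1 (edgeR adjusted p = 0.236) and -0.11 for Nrf1 (0.284), which then did not pass, and -0.47 for Myc (0.00445). Over all libraries, Pprc1 (-0.63, 0.0518) and Yy1 (-0.01, 0.908) did not pass. By promoter letters, the median rise was 1.15 for the 15 genes with the NRF1 motif, 0.93 for the 12 with the ETS motif, 1.37 for the 8 with the YY1 motif and 1.18 for the 34 with none.

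Several of the genes share their promoter region with a neighbour. A protein-coding gene on the other strand started within 1000 bases upstream, pointing away, for 17 of the 76 genes (22.4%), against 9.26% of 13449 tested protein-coding genes. Pairs whose annotated ends overlap, such as Mrpl46 and Mrps11, were not counted. Of the 16 partners tested, 9 rose, 3 fell and 4 did not pass, while all 17 mitochondrial ribosomal genes rose. Among all tested genes 31.3% rose and 38.1% fell. Mrps27, a small-subunit protein of the pentatricopeptide repeat family, rose by 1.53, and its partner Ptcd2, a gene of the same repeat family that starts 81 bases away, rose by 1.16 ± 0.09. Mrpl54 rose by 0.67 and its partner Apba3, an adaptor protein gene, by 1.62 ± 0.10. Mrpl30 rose by 1.90 and Mitd1, which starts 66 bases away and acts in cell division, fell by 0.60 ± 0.19 (edgeR adjusted p = 0.0161), with mean levels of 9.96 and 11.5 CPM in iBAT and scBAT and 23.8 and 11.1 CPM in iWAT and eWAT. Hira, a histone chaperone gene next to Mrpl40, fell by 0.36, with mean levels of 29.4 and 31.5 CPM in iBAT and scBAT, 44.9 in iWAT and 33.9 in eWAT. Without iWAT 1 and 3, Mitd1 (-0.21, edgeR adjusted p = 0.0889) and Hira (-0.15, 0.0877) did not pass. Cyb5rl, next to Mrpl37, fell by 0.31, with means of 6.23 and 7.07 CPM in the brown depots, 6.61 in iWAT and 10.2 in eWAT, so that eWAT alone stood higher. Across the 16 pairs the Pearson correlation of the differences was 0.0424.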

How the data were processed

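The authors deposited 1 table of raw read counts per gene, not normalized. Per the submitters' processing notes the tools were bcl2fastq 1.8.3, STAR 2.4.2a, Picard 1.119, HTSeq 0.6.1p1 and edgeR, with build mm10; the annotation and the strand setting of the counting are not given in the sources used here. RNA was extracted with a kit for fatty tissue and made into TruSeq libraries, per the labels' protocols.

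Counts were fitted for all 12 libraries together with edgeR 4.0.16 in R 4.3.3 (TMM scaling, filterByExpr by depot, robust quasi-likelihood, a mean per depot, 8 residual degrees of freedom) and adjusted over 14898 genes at 0.05; 4004 genes had no count. Fold changes are on the log2 scale with standard errors. On simulated counts for brown against white, 200 genes were changed up or down. The fit recovered 97 of 100 genes changed 4-fold and 37 of 100 changed 1.5-fold, and called 7 of 14698 unchanged genes. In the data 69.4% of tested genes passed, so the adjustment for many tests acts differently and these shares do not carry over. Alternatives used RLE and upper quartile scaling, no filter, DESeq2 1.42.0, limma-voom (limma 3.58.1), no robust estimation, only the depots compared, each library left out, a replicate block, and iWAT 1 and 3 left out. Genes named are the 6 largest and 6 smallest called differences, those not past the threshold, the 4 largest called in each pair of depots, the 6 highest and 4 lowest per kilobase, the S18 paralogs, up to 4 genes of each other list by p, and all regulators; others are said to be chosen after their values were seen or are examples. Lengths, overlaps and neighbours come from GENCODE vM21 (GRCm38). The genes, lists and tests were chosen with earlier results of these data known.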

Additional observations from a re-analysis of the deposited data

How the results depend on the processing

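The count of 75 higher genes between brown and white fat was 75 under every alternative run, and the median stayed between 1.07 and 1.28. For the named genes other than Mrps6, 440 of 440 alternative values kept direction and call, from 0.41 to 2.95, with adjusted p up to 0.00317. Between single brown and white depots the count of higher genes ran from 72 to 76. Mrps6 accounts for each added or lost lower call between brown and white depots. Lower genes for brown minus white were 1 with iWAT 1 and 3 left out and 0 to 1 over single libraries left out. For iBAT minus eWAT they were 1 with upper quartile scaling, only the depots compared or iWAT 1 and 3 left out, and 0 to 1 over single libraries left out. For scBAT minus eWAT they were 0 with RLE, no filter, limma-voom or the replicate block, and 0 to 1 over single libraries left out. With iWAT 1 and 3 left out, the iWAT side is 1 library, assumed to vary like the other depots; iBAT minus iWAT and scBAT minus iWAT then each had 1 lower gene, with medians of 1.02 and 0.95. For iWAT minus eWAT, higher genes were 0 with only the depots compared or with iWAT 1 and 3 left out and 0 to 2 over single libraries left out; lower genes were 8 with DESeq2, 0 with only the depots compared or with iWAT 1 and 3 left out, and 0 to 40 over single libraries left out; the median was 0.15 with iWAT 1 and 3 left out. The cause was not tested, and the share of all tested genes that passed in each alternative is not given here. With the shorter window the YY1 letters were in 2 promoters (2.99%), against 0.85% of the promoters of tested genes. Whether replicate numbers pair the libraries could not be settled. After the mean of each depot was taken out, correlations of same-numbered libraries ran from -0.184 to 0.234. Of 12 libraries, 5 correlated best with their own number. With 3 libraries per depot, of which those of iWAT differ widely, such values cannot exclude a pairing. With the replicate block the counts were 75 higher for brown minus white, 0 for scBAT minus iBAT, and 1 higher and 2 lower for iWAT minus eWAT. Changes of 1.5-fold were often missed on simulated counts, in which far fewer genes were changed than passed in the data. That share does not give the chance of a call here. A gene not called may still differ.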
